A study of Mus musculus with 24 samples.

Results

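Glutamate and GABA carry most fast excitation and inhibition in the brain, and the subunit genes of their receptors set how neurons respond to them. AMPA, kainate and NMDA receptors are glutamate-gated cation channels, delta receptors bind cerebellins at synapses, and metabotropic glutamate (mGlu) receptors act through G proteins. GABA-A receptors are chloride channels built from alpha, beta and gamma or other subunits, GABA-B receptors are G-protein-coupled dimers, and in the hypothalamus both transmitters act on the neurons that release vasopressin and oxytocin. Here 47 of the 22274 genes in the deposited table had the mouse symbol of such a subunit, and the 41 with at least 240 counts summed over the 24 libraries were followed. They were 4 AMPA, 5 kainate, 2 delta, 6 NMDA, 7 mGlu, 15 GABA-A and 2 GABA-B subunit genes. The member nearest the minimum was Gabrr2 with 268 counts, and the 6 genes left out below it were Grin3b with 116, Gabrr1 with 80, Gabrp with 13, Gabra6 with 10, Gabrr3 with 6 and Grm6 with 3.

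RNA-seq was done on hypothalamic tissue holding the supraoptic and paraventricular nuclei, and on the hippocampus, of male C57BL/6J mice. Lesioned mice (PEL) had the pituitary stalk destroyed by an electrical current, which cuts the axons of the vasopressin and oxytocin neurons, and were sampled at day 3 (PEL_3d) or day 10 (PEL_10d), while Sham mice carry the label day 0. The hypothalamus came from Sham, PEL_3d and PEL_10d mice without growth hormone (GH) and from the same 3 kinds of mice given GH (Sham-GH, PEL_3d-GH and PEL_10d-GH), and the hippocampus came from Sham and PEL_10d mice without GH. Each of the 8 groups had 3 libraries; age and the dose and route of GH were not given in the sources used, and nothing states that the libraries of a group came from separate animals, so the p-values measure the spread between these samples. Because every Sham sample is labelled day 0, both lesion times were compared with the same Sham libraries.

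Total counts per library ran from 15095267 to 17973494 with a median of 15883699. Levels are given as deposited FPKM (fragments scaled by gene length and library size, so that genes can be compared), and differences as log2 fold changes between groups from edgeR. A gene is called higher or lower at a Benjamini-Hochberg adjusted p below 0.05 over all genes tested, and n is 3 libraries a group except 2 for each Sham group without GH.

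The library titled SHAM-1, labelled hypothalamus, and the library titled HIP-SHAM-1, labelled hippocampus, did not carry the markers of their labelled tissues and were left out of the comparisons. In SHAM-1 the summed FPKM of 16 hypothalamic marker genes was 94.1, against 1664 and 1647 in the other Sham libraries, and that of 14 hippocampal markers was 356 against 63.5 and 64.5. In HIP-SHAM-1 the hypothalamic markers summed to 1472 FPKM, against 157 and 145 in the other hippocampal Sham libraries, and the hippocampal markers to 61.2 against 473 and 400.5. Receptor subunits stood apart in the same libraries: Grin2a, an NMDA receptor subunit, read 27.5 FPKM in SHAM-1 against 3.07 and 2.8 in the other Sham libraries, and Gabre, a GABA-A receptor subunit, read 15.1 FPKM in HIP-SHAM-1 against 0.03 and 0.124. The library titled HIP-SHAM-3 has hypothalamus in its tissue field but was kept by its title; it held 422 FPKM of Slc17a7, the vesicular glutamate transporter of hippocampal pyramidal and granule cells, against 407 in HIP-SHAM-2 and 0.886 and 0.55 in the hypothalamic Sham libraries.

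In the hypothalamus the most abundant subunit transcript per length, as mean FPKM over 17 libraries, was Gria1 among AMPA (94.2), Grik5 among kainate (27.7), Grid1 among delta (14.9), Grin1 among NMDA (60.6), Grm5 among mGlu (18.7) and Gabbr1 among GABA-B subunits (209.8). In the 5 hippocampal libraries the leaders by mean FPKM were Gria1 (235), Grik5 (47.3), Grid1 (12.9), Grin1 (103), Grm5 (40.7) and Gabbr1 (206), and Gabra5 (107) led the GABA-A family. So these 6 families had the same leader in both tissues.

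The hippocampus is built around glutamatergic pyramidal and granule cells, while the hypothalamus is a set of small nuclei with many GABA and peptide neurons. Receptors in these tissues can therefore be assembled from different subunits. At PEL day 10, 19 of the 41 were higher in the hippocampus than in the hypothalamus, where 29.7% of all genes tested were higher, and 12 were lower, against 30.9%. The median log2 fold change was 0.21 for the subunits and -0.02 for all 14561 genes tested. In Sham mice 19 of 40 tested were higher (all genes 27.9%) and 15 lower (all genes 27.2%), with a median of 0.09 for the subunits and 0.00 for all 14479 genes tested. FPKM did not overlap between the tissues at PEL day 10 for 33 of the 41, against 68.7% of all genes. With SHAM-1 and HIP-SHAM-1 kept as labelled, 0 subunits were called between the Sham tissues by edgeR. The edgeR fold changes lie above the log2 ratio of mean FPKM by a median of 0.245 over genes at PEL day 10 and 0.207 in Sham, since the 2 scale libraries differently, and 0 called subunits had an FPKM ratio of the opposite sign in either comparison. Fewer cells of a type and less RNA per cell cannot be told apart in tissue of this kind, here and in every result that follows.

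**Figure D1:**
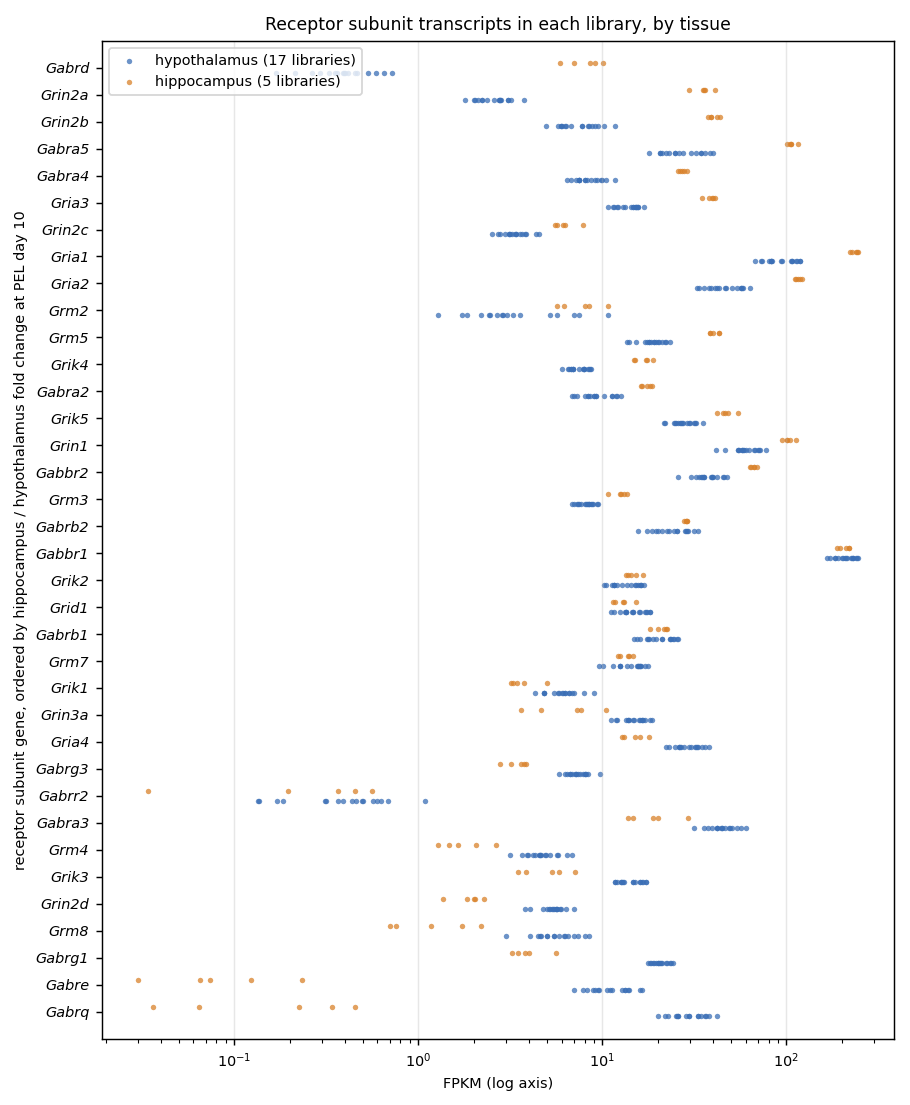
FPKM of 36 of the 41 receptor subunit genes (log axis) in 17 hypothalamic and 5 hippocampal libraries, each point a library, ordered by the hippocampus over hypothalamus fold change at PEL day 10. Gabrd, Grin2a and Grin2b at the top are higher in every hippocampal library (Grin2a from 29.5 to 41.1 FPKM), and Gabre and Gabrq at the bottom stay below 1 FPKM there.

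Among AMPA receptor subunits, 3 of 4 were higher in the hippocampus at both stages and Gria4 was lower. Gria1, which carries much of the activity-driven insertion of AMPA receptors, had 240.5, 238 and 246 FPKM in the hippocampus and 106, 108 and 93.7 in the hypothalamus of PEL_10d mice, a log2 fold change of 1.49 (SE 0.08, adjusted p = 4.7e-07). Gria2, the subunit that keeps calcium out of the channel, averaged 113 ± 2.1 and 50.3 ± 3.28 FPKM (SD), a log2 fold change of 1.45. The hippocampal level of both was above every hypothalamic library, whether lesioned or not. Gria3 averaged 38.3 against 15 FPKM (log2 fold change 1.62). Gria4 went the other way, with 13.1, 18 and 12.9 FPKM in the hippocampus and 29.7, 33.2 and 31.8 in the hypothalamus (log2 fold change -0.75, SE 0.10, adjusted p = 1.8e-04). As a share of summed AMPA FPKM, Gria4 made up 3.59% ± 0.694 (SD) in the hippocampus and 15.8% ± 0.846 in the hypothalamus.

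The kainate family divided. Grik4 and Grik5, subunits that work only together with others of the family, were higher in the hippocampus at PEL day 10, by 1.20 and 1.13 in log2 fold change. Grik3 was lower, at 7.06, 5.82 and 5.33 FPKM against 15.9, 16.6 and 12.7 (log2 fold change -1.07, SE 0.12, adjusted p = 6.4e-05). Grik1 was called lower in Sham (-1.13, adjusted p = 1.8e-05) and missed the threshold at PEL day 10 (-0.33, adjusted p = 0.08), and the difference of the PEL effect between tissues also missed it (-0.78, adjusted p = 0.0571). Grik2 was not called in either stage, with group means of 14 and 15.1 FPKM in the hippocampus and 16.1 and 15 in the hypothalamus.

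Of the delta receptors, Grid1 had 13.8 ± 1.29 against 15.5 ± 1.79 FPKM (SD) at PEL day 10, which overlapped (log2 fold change 0.08, adjusted p = 0.523), and was called lower in Sham (-0.41, adjusted p = 1.8e-04), the difference of the PEL effect between tissues missing the threshold (-0.48, adjusted p = 0.0529). Cbln1, a secreted partner of delta receptors, had 2.29, 1.06 and 1.68 FPKM in the hippocampus and 58.6, 61.3 and 48.9 in the hypothalamus of PEL_10d mice, without overlap (log2 fold change -4.86, SE 0.17, adjusted p = 6.6e-08).

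All 6 NMDA receptor subunits were called between the tissues in both stages, 4 higher in the hippocampus and 2 lower. Grin2a, the glutamate-binding subunit typical of mature forebrain synapses, had 35, 29.5 and 35.7 FPKM in the hippocampus and 2.58, 3.07 and 2.82 in the hypothalamus of PEL_10d mice, and 41.1 and 36.1 against 3.07 and 2.8 in Sham. The groups were far apart, with a log2 fold change of 3.81 (SE 0.11, adjusted p = 2.6e-08) at PEL day 10 and 3.92 (SE 0.08, adjusted p = 3.5e-13) in Sham. Grin2b, its counterpart from early development onwards, had 43.4, 39 and 39 FPKM against 7.74, 8.82 and 8.36 at PEL day 10 and 41.8 and 37.5 against 10.2 and 9.49 in Sham. Again no library overlapped, and the log2 fold changes were 2.56 (SE 0.08, adjusted p = 4.7e-08) and 2.24 (SE 0.07, adjusted p = 4.6e-12). Grin1, the subunit every NMDA receptor needs, was higher by a log2 fold change of 1.09 and Grin2c by 1.51 at PEL day 10. Grin2d and Grin3a, which give slower channels and channels that pass less calcium, were lower in the hippocampus by -1.08 and -0.59 in log2 fold change.

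The make-up of the Grin2 pool (Grin2a to Grin2d, by FPKM) differed accordingly. Grin2a made up 40.3% ± 1.92 (SD) of it in the hippocampus and 14.7% ± 0.469 in the hypothalamus of PEL_10d mice, and Grin2d 2.56% ± 0.351 and 27.3% ± 1.1. Grin2b held the largest share in both, at 49% ± 2.47 and 43.3% ± 0.664. Shares of this kind were computed for 31 subunits within 7 pools (AMPA, kainate, Grin2, mGlu and GABA-A alpha, beta and gamma), and all 31 separated the 3 hippocampal from the 3 hypothalamic PEL_10d libraries, each with an exact two-sided permutation p of 0.1, the smallest that 3 against 3 allows. They are not independent, since shares within a pool sum to 100%.

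Metabotropic receptors went both ways. Grm5, a Gq-coupled receptor, was the most abundant at 42.9, 43.2 and 40.1 FPKM in the hippocampus against 19.1, 20 and 19.6 in the hypothalamus of PEL_10d mice (log2 fold change 1.34, SE 0.06, adjusted p = 2.9e-07). The Gi-coupled receptors Grm2 and Grm3 were higher as well, Grm3 by 1.03 (adjusted p = 7.1e-06). Grm2 ranged from 1.84 to 5.7 FPKM among hypothalamic PEL_10d libraries, the hippocampal ones reading 8.01, 8.46 and 10.8 (log2 fold change 1.41, adjusted p = 0.00477, and 1.79, adjusted p = 2.9e-07 in Sham). Grm8, a Gi-coupled presynaptic receptor, was lower, with 0.701 and 0.761 FPKM in hippocampal and 8.51 and 6.18 in hypothalamic Sham libraries (log2 fold change -3.18, SE 0.21, adjusted p = 1.8e-08). At PEL day 10 it read 2.19, 1.72 and 1.17 against 5.47, 5.81 and 5.45 (log2 fold change -1.44, SE 0.20, adjusted p = 2.2e-04), and the tissues did not overlap at either stage. Grm4, also presynaptic, was lower, at 2.12 against 5.03 mean FPKM, while Grm7 was not called in either stage.

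The GABA-A family held the extremes. Gabrd, the subunit of extrasynaptic receptors that carry tonic inhibition, had 8.56, 9.12 and 10 FPKM in the hippocampus and 0.363, 0.531 and 0.169 in the hypothalamus of PEL_10d mice, and 7.03 and 5.91 against 0.586 and 0.401 in Sham. Its log2 fold changes were 4.92 (SE 0.26, adjusted p = 5.4e-07) and 3.91 (SE 0.25, adjusted p = 1.7e-08), the hypothalamic values resting on 11, 17 and 5 counts in PEL_10d and 17 and 12 in Sham. Gabrq, the theta subunit, was close to absent from the hippocampus, with 0.452, 0.338 and 0.064 FPKM there and 33.2, 34.5 and 28.4 in the hypothalamus of PEL_10d mice. Gabre, the epsilon subunit, had 0.233, 0.065 and 0.074 FPKM against 13.7, 12.8 and 7.03. In Sham libraries Gabrq read 0.224 and 0.036 FPKM against 42 and 37.8 and Gabre 0.03 and 0.124 against 16.5 and 16.1.

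Both genes thus separated the tissues completely, and both are known for expression in the hypothalamus and brainstem. The log2 fold changes were -6.56 (SE 0.25, adjusted p = 1.1e-07) for Gabrq and -6.26 (SE 0.41, adjusted p = 1.9e-06) for Gabre at PEL day 10, and -7.92 (SE 0.22, adjusted p = 2.2e-12) and -7.45 (SE 0.21, adjusted p = 3.4e-12) in Sham. The hippocampal values rest on few counts, for Gabre 16, 5 and 5 in PEL_10d and 2 and 9 in Sham, and for Gabrq 26, 30 and 5 and 17 and 3. Of 15 hypothalamic markers tested at PEL day 10, 14 were lower in the hippocampus and 1 higher, Sst (0.89), at 174, 226 and 208 against 175, 139.7 and 73.6 FPKM. The 16 of the list summed to 178, 233 and 214 FPKM in the hippocampus, nearly all of it Sst, with Hmx3 at 0, against 1231, 1449 and 1172 in the hypothalamus, with Pmch the most abundant. Of 14 hippocampal markers 13 were higher in the hippocampus, as were 10 of 14 pan-neuronal markers, 1 being lower, Tubb3, and the 14 summing to 3696, 3832 and 3713 against 2550.3, 2764 and 2621 FPKM (Snap25 the most abundant). Astrocyte markers were lower in 8 of 9, microglia and macrophage markers in 10 of 12 with 1 higher, P2ry12, thalamic ones in 6 of 7 tested, striatal ones in 4 of 8 with 1 higher, Ppp1r1b, oligodendrocyte precursor ones in 3 of 6, endothelial ones in 3 of 6 and the 1 anterior pituitary marker tested. Choroid plexus markers were higher in 4 of 7 tested (summed FPKM 133, 39 and 801 against 22.2, 20.9 and 26.6, Ttr most abundant in both). In Sham, choroid plexus markers were higher in 8 of 8 (4348 and 5449 against 24.9 and 22.3, Ttr most abundant in the hippocampus and Slc4a5 at 0 in the hypothalamus) and oligodendrocyte markers in 8 of 8 (3272 and 3522 against 2081 and 2882, Mbp most abundant). Pan-neuronal markers were higher there in 8 of 14 and lower in 3, microglia and macrophage markers higher in 3 of 12 and lower in 1, and astrocyte, thalamic and striatal ones lower in 6 of 9, 6 of 7 tested and 6 of 8 and higher in 1 each. The part of these markers in the subunit differences was not tested.

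Other GABA-A subunits differed less. Gabrg1, a gamma subunit found in glia and in some subcortical neurons, had 5.6, 4 and 3.79 FPKM in the hippocampus and 19, 20.2 and 21.1 in the hypothalamus of PEL_10d mice, without overlap (log2 fold change -1.89, SE 0.14, adjusted p = 3.3e-06). Gabra5, the alpha subunit of extrasynaptic receptors on hippocampal pyramidal cells, had 106, 100.1 and 116 FPKM against 34.1, 30.3 and 24.8 (log2 fold change 2.12, SE 0.11, adjusted p = 6.1e-07). Gabra4, the alpha partner of Gabrd in forebrain, was higher by 1.86 (adjusted p = 1.7e-07) and Gabra2 by 1.14. Gabra3 and Gabrg3 were lower, by -0.78 (adjusted p = 0.00144) and -0.77 (adjusted p = 1.7e-05). The alpha pool was therefore differently made up: Gabra5 was 44.1% ± 2.57 (SD) of it in the hippocampus and 17.6% ± 3.76 in the hypothalamus, and Gabra3 9.38% ± 2.32 and 27.4% ± 1. The beta subunits Gabrb1 and Gabrb2 and the rho subunit Gabrr2 were not called at PEL day 10; in Sham, Gabrb2 was called higher (0.32), though the PEL effect was not shown to differ between tissues (adjusted p = 0.92), and Gabrr2 was not tested.

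For GABA-B receptors, Gabbr2, the subunit that engages the G protein, had 64.4, 68.9 and 66.7 FPKM in the hippocampus and 35.7, 39.5 and 38.7 in the hypothalamus of PEL_10d mice (log2 fold change 1.06, SE 0.07, adjusted p = 1.6e-06). Gabbr1, which binds GABA, was called higher at PEL day 10 (0.23, SE 0.07, adjusted p = 0.0161), but its FPKM overlapped, at 219, 210.3 and 217 against 211, 229 and 202, and the size is within the scaling shift given above. In Sham it read 196 and 189 against 228 and 243 and was not called (-0.13, adjusted p = 0.0594), and the PEL effect on it differed between tissues (-0.35, adjusted p = 0.0377).

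Many GABA-A subunit genes lie in clusters, and the genes of a cluster did not always move the same way between tissues. On GRCm38 the cluster at chrX:72255999-72842602 holds Gabre, Gabra3 and Gabrq, all lower in the hippocampus, though by very different amounts. At chr5:70751047-72149037, Gabrg1 was lower, Gabra2 and Gabra4 higher and Gabrb1 not called at PEL day 10. The cluster at chr4:33062999-33163588 holds Gabrr2, not called, and Gabrr1, below the count minimum.

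Because Gabre and Gabrq share a cluster and are the most reduced in the hippocampus, their promoters are shown (RefSeq, GRCm38.p6, 250 bases before to 50 after the start, written 5′ to 3′ on the gene's strand). A promoter was listed for 26 of the 41 members and none for 15, among them Gabrd, Grin2a and Grin2b. The motifs GGGCGG (the GC box), TATAAA and TGACGTCA were searched on both strands, and are held by 35.7%, 13.6% and 1.79% of 32851 promoters. Capitals mark GGGCGG or its reverse complement, which occurs 3 times for Gabre (chrX:72274672-72274971, minus strand) and 2 times for Gabrq (chrX:72824928-72825227, plus strand), while the other motifs are not in these windows. Gabra3, of the same cluster and lower in the hippocampus too, has 2 listed promoters whose windows overlap. Each has 0 matches of GGGCGG, and both hold the same 1 match of TATAAA. These are matches of letters and no binding was measured.
Gabre: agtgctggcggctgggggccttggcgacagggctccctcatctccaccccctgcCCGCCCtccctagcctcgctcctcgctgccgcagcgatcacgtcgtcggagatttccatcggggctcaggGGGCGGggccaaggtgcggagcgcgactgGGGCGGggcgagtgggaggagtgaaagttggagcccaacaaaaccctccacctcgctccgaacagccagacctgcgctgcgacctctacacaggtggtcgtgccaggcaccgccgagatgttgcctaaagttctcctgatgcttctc
Gabrq: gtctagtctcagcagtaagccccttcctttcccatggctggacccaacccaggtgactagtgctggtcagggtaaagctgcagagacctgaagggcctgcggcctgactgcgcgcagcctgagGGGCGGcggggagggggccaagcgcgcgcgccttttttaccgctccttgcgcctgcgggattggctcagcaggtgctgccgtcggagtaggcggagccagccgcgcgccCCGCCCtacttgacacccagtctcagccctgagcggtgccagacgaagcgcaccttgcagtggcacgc

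Partner genes of the receptors also differed by tissue. AMPA receptor auxiliary subunits were higher in the hippocampus of PEL_10d mice in 7 of 12, led by Shisa6 (4.05) and Cacng8 (2.46) in log2 fold change, and lower in 2, Cacng4 (-1.29) and Shisa9 (-0.61). Kainate and delta receptor partners were higher in 3 of 7, with C1ql2 (2.59) and Neto1 (2.23), and lower in 3, with Cbln1 (-4.86) and Cbln2 (-2.81). Glutamate receptor scaffolds were higher in 17 of 21, with Grasp (3.43) and Homer3 (2.92), and lower in 2, Grip2 (-1.21) and Dlg1 (-0.33). GABA-A clustering and auxiliary genes were higher in 8 of 12, with Shisa7 (1.65) and Trak2 (1.03), and 1 was lower, Plcl1 (-0.50). GABA-B partners were higher in 5 of 7, the potassium channel genes Kcnj6 (1.95) and Kcnj3 (1.93) leading, and lower in 2, Kctd12b (-1.12) and Kctd8 (-0.79). Transmitter synthesis and transport genes divided, 6 of 19 higher, with Slc17a7 (9.43) and Slc1a1 (1.48), and 10 of 19 lower, with Slc6a12 (-5.73) and Slc17a6 (-4.88), which sets the 2 main vesicular glutamate transporters in opposite directions. Glycine receptor subunits, the inhibitory channels of brainstem and spinal cord, were lower in 4 of 5, Glra1 (-6.56) and Glra4 (-5.19) leading.

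In Sham mice the same lists divided as follows. AMPA auxiliary genes were higher in 7 of 12 (Shisa6 4.39 and Cnih2 2.24) and lower in 4 (Cacng4 -1.80 and Shisa9 -1.53), kainate and delta partners higher in 4 of 7 (Neto1 2.35 and C1ql2 1.62) and lower in 3 (Cbln1 -5.90 and Cbln2 -3.44), and scaffolds higher in 16 of 21 (Homer3 3.72 and Grasp 2.99) and lower in 2 (Grip2 -1.58 and Dlg1 -0.43). GABA-A partners were higher in 7 of 12 (Trak2 1.32 and Shisa7 1.31) and lower in 2 (Lhfpl4 -0.55 and Nlgn2 -0.18), and GABA-B partners higher in 4 of 7 (Kcnj6 1.82 and Kcnj3 1.62) and lower in 2 (Kctd8 -1.81 and Kctd12b -0.89). Synthesis and transport genes were higher in 6 of 19 (Slc17a7 9.38 and Slc17a8 1.39) and lower in 13 (Slc6a12 -6.02 and Slc17a6 -5.56), and glycine receptor subunits lower in 4 of 5 (Glra1 -6.37 and Glra4 -5.15).

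Cutting the stalk injures the axons of neurons that carry glutamate and GABA receptors on their cell bodies and dendrites, and glia react around them. At day 3 receptor subunits were broadly lower in the hypothalamus. The 41 genes together took 0.613 and 0.597% of all counts in Sham libraries and 0.455, 0.467 and 0.441% in PEL_3d libraries. Every PEL_3d library lay below every Sham library. Of 40 subunits tested, 33 were lower and 0 higher, against 18.2% of all genes lower and 22.2% higher, and the median log2 fold change was -0.41 for the subunits and -0.01 for all 14905 genes tested. Beside the 0 higher by edgeR, 1 was higher at an unadjusted p below 0.05 and 0 by DESeq2. With SHAM-1 kept, 2 were lower.

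**Figure D2:**
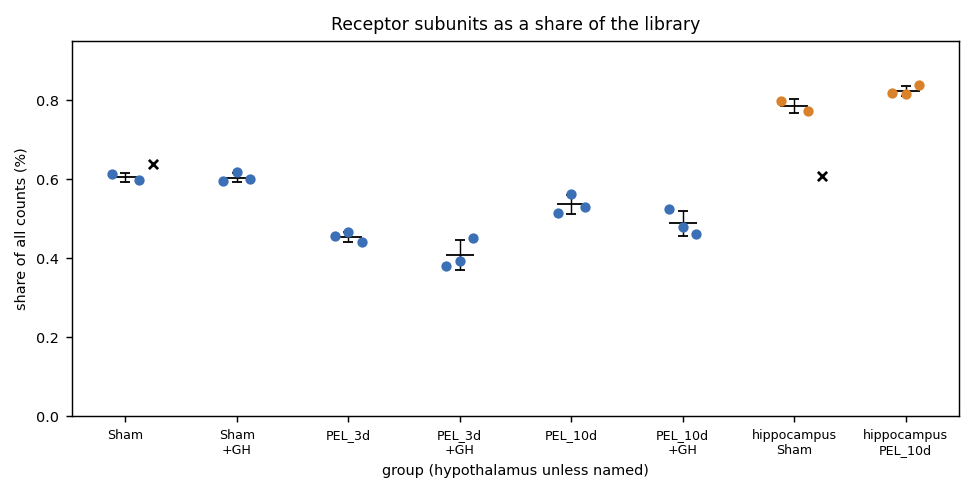
Counts of the 41 receptor subunits as a percentage of all counts, each dot a library, the dash and bar the mean and SD of the group, and the crosses SHAM-1 (0.638%) and HIP-SHAM-1 (0.609%), which are in no mean. The hypothalamic means run from 0.408% in PEL_3d-GH to 0.605% in Sham, and the hippocampal means are 0.785% and 0.823%.

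The largest falls at day 3 were in Gabra5, Gabre and Grin2b. Gabra5 had 22.2, 21 and 20.7 FPKM in PEL_3d and 40.1 and 32.3 in Sham libraries, a log2 fold change of -0.79 (SE 0.09, adjusted p = 9.5e-05). Gabre had 11, 9.43 and 9.1 against 16.5 and 16.1 (-0.75, SE 0.09, adjusted p = 1.1e-04). Grin2b had 6.36, 6.05 and 6 against 10.2 and 9.49 (-0.70, SE 0.06, adjusted p = 1.2e-05). In each of these genes all PEL_3d libraries were below both Sham libraries. Grm8 (-0.70, SE 0.14, adjusted p = 0.00333) and Gabra2 (-0.69, SE 0.11, adjusted p = 5.0e-04), the alpha subunit of many axon initial segment synapses, followed.

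By role, 4 of 4 AMPA subunits were lower at day 3, from -0.59 for Gria2 to -0.41 for Gria3, and so were 5 of 5 kainate subunits, from -0.52 for Grik1 to -0.27 for Grik5. Grid1 was lower by -0.43. Among NMDA subunits Grin1, Grin2a, Grin2b and Grin3a were lower, and Grin2c (-0.01, adjusted p = 0.978) and Grin2d (-0.18, adjusted p = 0.179) were not called. Among mGlu receptors Grm5, Grm7 and Grm8 were lower, and Grm2 (0.55, adjusted p = 0.0558), Grm3 (0.11, adjusted p = 0.357) and Grm4 (-0.09, adjusted p = 0.623) were not called. In the GABA-A family 12 of 14 tested were lower, and Gabrr2 had too few counts to test. Gabbr1 (-0.30) and Gabbr2 (-0.26) were lower too.

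Cell type markers moved at the same time. All 12 microglia and macrophage markers were higher in PEL_3d, with a summed FPKM of 1621, 1265 and 2006 against 149 and 147 in Sham, Lyz2 being the most abundant and none at 0. Of 14 pan-neuronal markers 11 were lower and 0 higher (0 also at an unadjusted p below 0.05 and by DESeq2), their median log2 fold change was -0.32 and their summed FPKM 2403, 2602 and 2305 against 3002 and 2954, Snap25 being the most abundant in Sham and Uchl1 in PEL_3d. Of 16 hypothalamic markers 12 were lower and 1 higher, Gal, with a median of -0.60 and a summed FPKM of 1210.4, 1389 and 1251 against 1664 and 1647, Pmch being the most abundant and none at 0. Astrocyte markers were higher in 6 of 9 and lower in 1 (summed FPKM 1907, 1719 and 1793 against 998 and 1044, Gfap most abundant in PEL_3d). Oligodendrocyte precursor markers were higher in 6 of 6 (summed FPKM 172, 169 and 183 against 116 and 125, Olig1 most abundant) and endothelial markers in 4 of 6 (summed FPKM 116, 105 and 116 against 66.7 and 66, Cldn5 most abundant in PEL_3d). Among the remaining lists, 1 of 8 oligodendrocyte markers was higher, 3 of 8 striatal and 2 of 5 anterior pituitary markers tested were lower, and hippocampal (1 higher and 4 lower of 10 tested), thalamic (1 and 2 of 7) and choroid plexus markers (1 and 2 of 7) went both ways. Their part in the fall of the subunits was not tested.

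Some genes of each partner list were lower at day 3 too. AMPA auxiliary subunits were lower in 5 of 12, Shisa9 (-0.48) and Cacng2 (-0.46) leading, and kainate and delta partners in 4 of 7, with C1ql2 (-0.54) and Cbln4 (-0.51). Scaffolds were lower in 14 of 21, among them the pentraxins Nptx2 (-0.52) and Nptx1 (-0.51), and 1 was higher, Homer3 (1.13). GABA-A clustering genes were lower in 8 of 12, including Shisa7 (-0.56), and Gabarap, a gene with a role in autophagy too, was higher (0.55). GABA-B partners were lower in 4 of 7, with Kcnj6 (-0.59) and Kcnj3 (-0.51), while Kctd12 (0.77) was higher. Synthesis and transport genes were lower in 14 of 19, the glutamate transporter Slc17a8 at 0.731, 0.687 and 0.72 FPKM against 1.43 and 1.35 and Slc6a12 (-0.65) leading, and Slc38a2 (0.25) was higher. Of 5 glycine receptor subunits 2 were lower, Glra3 (-0.64) and Glrb (-0.26).

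By day 10 the acute reaction to the injury has had time to decline. Fewer subunits differed from Sham at day 10 than at day 3. Of 41 tested against the same Sham libraries, 3 were lower (all genes 1.43%) and 0 higher (all genes 7.97%), with a median log2 fold change of -0.18 for the subunits and -0.01 for all 14801 genes tested. At an unadjusted p below 0.05 edgeR had 1 higher and 19 lower, and DESeq2 called 0 higher and 10 lower. The 3 were GABA-A alpha and theta subunits. Gabra2 had 9.29, 10.2 and 8.61 FPKM in PEL_10d and 12.6 and 11.8 in Sham (-0.41, SE 0.10, adjusted p = 0.0402), Gabrq 33.2, 34.5 and 28.4 and 42 and 37.8 (-0.37, SE 0.09, adjusted p = 0.0419), and Gabra3 44.6, 46.5 and 49 and 60 and 56.5 (-0.34, SE 0.07, adjusted p = 0.023). In all 3 genes the PEL_10d libraries were below both Sham libraries. The count rests on the Sham pair: it was 0 without SHAM-2, 1 without SHAM-3 and 0 with SHAM-1 kept, when Gabrq and Gabra3 had log2 fold changes of 0.21 and 0.14. Gabra2 and Gabrq also lost their calls without PEL_10d-1 or PEL_10d-3, and Gabra3 without PEL_10d-2 (adjusted p = 0.0553 to 0.0829).

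Microglia and macrophage markers were still higher at day 10 in 10 of 12, with a summed FPKM of 1046, 524 and 1149 (Lyz2 most abundant, none at 0), and 3 of 14 pan-neuronal markers were lower and 0 higher (0 also at an unadjusted p below 0.05 and by DESeq2; summed FPKM 2550.3, 2764 and 2621). Higher were also 3 of 9 astrocyte markers (summed FPKM 1430.0, 1359 and 1449), 4 of 8 oligodendrocyte markers (3569, 3383 and 3555 against 2081 and 2882 in Sham), 2 of 6 oligodendrocyte precursor markers, 4 of 6 endothelial markers, 1 of 10 hippocampal and 1 of 7 thalamic markers tested. Of the hypothalamic markers 3 of 16 were lower, Avp, Oxt and Otp, and 0 higher (0 also at an unadjusted p below 0.05 and by DESeq2). Their part in the result was not tested. Among the partners of the receptors, the scaffolds Grip1 (-0.42), Shank2 (-0.31) and Dlg3 (-0.27), which make up 3 of 21, and the GABA-A partner Shisa7 (-0.30), 1 of 12, were lower. The glutamine transporter Slc38a2, 1 of 19 synthesis and transport genes, was higher (0.65). By edgeR 0 AMPA auxiliary, kainate and delta partner, GABA-B partner and glycine receptor genes were called, against 1 higher and 1 lower, 0 and 1, 1 and 0, and 0 and 1 at an unadjusted p below 0.05, and 0 in each list by DESeq2.

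Between day 3 and day 10 of the lesion 12 of 41 subunits rose and 0 fell. Of all 14807 genes tested 938 (6.33%) rose and 1804 fell. At an unadjusted p below 0.05 edgeR had 24 subunits higher and 1 lower, and DESeq2 called 15 higher and 0 lower. The median log2 fold change was 0.22 for the subunits and 0.01 for all 14807 genes tested. All 4 AMPA subunits were among the 12 that rose. Gabrr2 had 0.135, 0.366 and 0.171 FPKM at day 3 and 0.629, 0.461 and 0.571 at day 10, from 4, 8 and 5 and 15, 14 and 16 counts (1.40, SE 0.41, adjusted p = 0.0446). Gabra5 had 22.2, 21 and 20.7 and 34.1, 30.3 and 24.8 (0.46, SE 0.10, adjusted p = 0.0147), and Grin2b 6.36, 6.05 and 6 and 7.74, 8.82 and 8.36 (0.44, SE 0.07, adjusted p = 0.0033). The days did not overlap in any of these genes. Gria1 (0.37, adjusted p = 0.0119) and Gabrb1 (0.35, adjusted p = 0.00767) came next, and Gria2, Gria3, Gria4, Grin2a, Grik2 and Grm7 rose by 0.26 to 0.35. Gabrr2 lost its call when any 1 library other than PEL_3d-2 was left out and by DESeq2 (adjusted p = 0.162, with 0.0417 to 0.162 over all settings). The count was 6 without PEL_3d-1, 4 without PEL_3d-3 and 4 without PEL_10d-2.

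Over the same interval 11 of 12 microglia and macrophage markers fell, 8 of 8 oligodendrocyte markers rose (summed FPKM 2365, 2353 and 2459 at day 3 and 3569, 3383 and 3555 at day 10, Mbp most abundant) and 4 of 14 pan-neuronal markers rose and 1 fell. Oligodendrocyte precursor markers fell in 4 of 6 and endothelial ones in 2 of 6, choroid plexus markers rose in 3 of 7 tested, striatal ones in 2 of 8 and hippocampal ones in 1 of 10 tested, and astrocyte (1 up and 2 down of 9), hypothalamic (2 and 1 of 16) and thalamic markers (1 and 1 of 7 tested) went both ways. Their part was not tested. Among the partner lists, synthesis and transport genes rose in 8 of 19, with the astrocytic transporters Slc1a2 (0.43) and Slc6a11 (0.43). Kctd12 (-0.51) and Gabarap (-0.31) fell. Risers elsewhere were 2 of 12 AMPA auxiliary genes (Cacng7 0.26, Shisa9 0.25), 2 of 21 scaffolds (Dlg3 0.21 among them), 3 of 12 GABA-A partners (Plcl1 0.30 leading), 2 of 7 GABA-B partners (Kcnj6 0.54, Kcnj3 0.35) and 1 of 5 glycine receptor subunits (Glra3 0.37). Of 7 kainate and delta partners edgeR called 0, with 2 higher at an unadjusted p below 0.05 and 0 by DESeq2.

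**Figure D3:**
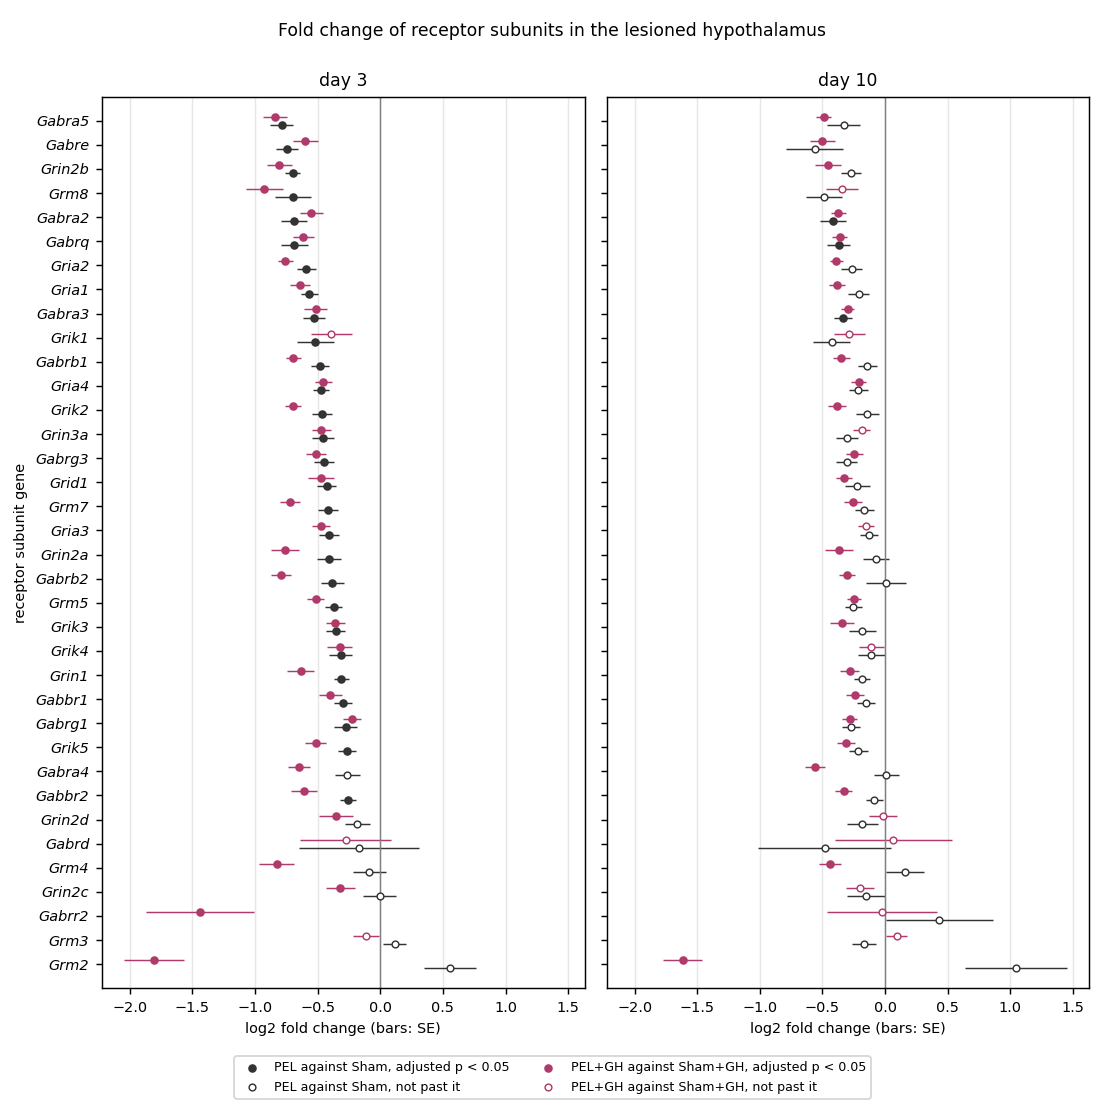
Log2 fold change (horizontal axis, bars SE) of 36 of the 41 receptor subunits in the lesioned hypothalamus at day 3 and day 10, without GH (dark, against Sham) and with GH (red, against Sham-GH), filled where the adjusted p is below 0.05. Over all 41, 33 (of 40 tested) and 38 are lower at day 3 and 3 and 30 at day 10, and Grm2 is the farthest left in the GH series at both days.

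Cutting the stalk can also lower the release of pituitary hormones, among them GH. Blood levels of GH in these mice were not given in the sources used. The lesion in mice given GH was compared with Sham-GH libraries. The subunits took 0.595, 0.618 and 0.599% of counts in Sham-GH and 0.381, 0.392 and 0.45% in PEL_3d-GH, without overlap. At day 3, 38 of 41 were lower and 0 higher (0 also at an unadjusted p below 0.05 by edgeR and 0 by DESeq2). Of all 14743 genes tested 3708 (25.2%) were lower and 3973 higher. The median was -0.61 for the subunits and 0.00 for all genes tested. Among the 38 were 4 of 4 AMPA, 4 of 5 kainate, 6 of 6 NMDA and 2 of 2 GABA-B subunits.

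The metabotropic receptor Grm2 had the largest fall here. This presynaptic autoreceptor of many pathways had 1.28, 3.58 and 2.42 FPKM in PEL_3d-GH and 10.7, 7.5 and 7.04 in Sham-GH (-1.81, SE 0.24, adjusted p = 1.8e-04). Gabrr2 had 0.136, 0.313 and 0.185 and 0.498, 0.598 and 0.681 (-1.44, SE 0.43, adjusted p = 0.017), from 4, 9 and 6 and 12, 19 and 20 counts. Grm8 had 3.01, 4.03 and 4.45 and 8.07, 6.28 and 7.04 (-0.93, SE 0.15, adjusted p = 5.5e-04). The groups did not overlap in these 3 genes. Gabra5 (-0.84, adjusted p = 5.1e-05) was lower as well. In the Sham libraries without GH, Grm2 read 2.87 and 1.72 FPKM, within the PEL_3d-GH range.

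At day 10 with GH, 30 of 41 subunits were still lower and 0 higher. At an unadjusted p below 0.05 edgeR had 0 higher, and DESeq2 called 0 higher. Of all 14686 genes tested 1947 (13.3%) were lower and 2598 higher. The median was -0.31 for the subunits and -0.01 for all genes tested. Grm2 had 2.69, 2.2 and 3.27 FPKM against 10.7, 7.5 and 7.04 in Sham-GH (-1.61, SE 0.16, adjusted p = 6.3e-05). Gabra4 had 7.16, 7.49 and 8.25 against 10.5, 11.7 and 9.92 (-0.56, SE 0.08, adjusted p = 6.1e-04). Every PEL_10d-GH library was below every Sham-GH library in these genes. Gabre (-0.50, adjusted p = 0.00387) was lower as well. In the Sham libraries without GH, Grm2 read 2.87 and 1.72 FPKM. Grm8 (-0.34, adjusted p = 0.0683) and Gabrr2 (-0.03, adjusted p = 0.972), lower at day 3, were not called.

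From day 3 to day 10 with GH, 10 of 41 rose and 0 fell. At an unadjusted p below 0.05 edgeR had 23 higher and 0 lower, and DESeq2 called 17 higher and 0 lower. Of all 14838 genes tested 713 (4.81%) rose and 1602 fell. The median was 0.26 for the subunits and 0.00 for all genes tested. Grm8 had 3.01, 4.03 and 4.45 FPKM at day 3 and 6.48, 7.37 and 4.98 at day 10 (0.58, SE 0.16, adjusted p = 0.0421). Gabrb2 had 15.5, 17.4 and 18.6 and 24.4, 25.4 and 22.5 (0.48, SE 0.08, adjusted p = 0.00713), and Grm7 10.1, 9.54 and 13.6 and 15.4, 14.3 and 12.5 (0.45, SE 0.10, adjusted p = 0.0154). Grm8 and Gabrb2 did not overlap between days, and Grm7 did through PEL_3d-GH-3. Grin2a (0.38, adjusted p = 0.0433), Gria2, Gria3, Gabrb1 and Grm5 also rose. Single libraries moved this count widely: it was 2 without PEL_3d-GH-1, 3 without PEL_3d-GH-2, 27 without PEL_3d-GH-3, 4 without PEL_10d-GH-1 and 3 without PEL_10d-GH-2.

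Markers in the GH arm moved as well. Microglia and macrophage markers were higher in 12 of 12 at both days, with a summed FPKM of 129.5 ± 17.9 (SD) in Sham-GH, 2964, 3031 and 1964 in PEL_3d-GH and 847, 1161 and 1383 in PEL_10d-GH (Lyz2 most abundant after the lesion, none at 0), and from day 3 to day 10 they fell in 11 of 12. Oligodendrocyte markers were higher in 2 of 8 at day 3 and 8 of 8 at day 10 and rose in 8 of 8 between the days, with a summed FPKM of 2403, 2206 and 2449.7 in Sham-GH, 2541, 2334 and 2742 in PEL_3d-GH and 4080.4, 4435 and 3945 in PEL_10d-GH (Mbp most abundant). Astrocyte markers were higher in 6 of 9 and lower in 2 at day 3 and higher in 5 and lower in 1 at day 10, and fell in 1 between the days (summed FPKM 1094, 1058 and 1097 in Sham-GH, 2007, 1937 and 1714 in PEL_3d-GH and 1548, 1948 and 1582 in PEL_10d-GH). Oligodendrocyte precursor markers were higher in 6 of 6 and 4 of 6 and fell in 3 of 6 between the days. Pan-neuronal markers were lower in 12 of 14 at both days and higher in 0 (0 also at an unadjusted p below 0.05 and by DESeq2), the summed FPKM being 3113, 2957 and 3135 in Sham-GH, 2072, 2055 and 2543 in PEL_3d-GH and 2719, 2549 and 2463 in PEL_10d-GH, and 4 of 14 rose between the days. Hypothalamic markers were lower in 7 of 16 and higher in 1 at day 3 and lower in 3 and higher in 2 at day 10, with a summed FPKM of 1117, 1551 and 1472 in Sham-GH, 1226, 1104 and 1558 in PEL_3d-GH and 1436, 1931 and 6879 in PEL_10d-GH (Pmch most abundant in the first 2 groups and Pomc in the last). Endothelial markers were higher in 3 of 6 and lower in 1 at day 3 and higher in 3 at day 10. At day 3 hippocampal markers were lower in 4 of 11 tested and striatal ones in 4 of 8. Thalamic (3 higher and 3 lower of 8) and choroid plexus markers (1 and 2 of 7 tested) went both ways. At day 10 the lower calls were 2 of 11 hippocampal markers tested and 1 of 8 striatal ones. Thalamic (2 higher and 2 lower of 8) and choroid plexus markers (1 and 1 of 7 tested) again went both ways. Of 3 anterior pituitary markers tested 2 were higher. Between the days 3 of 11 hippocampal, 1 of 8 striatal, 1 of 7 choroid plexus and 1 of 2 anterior pituitary markers tested rose. Thalamic markers went both ways (1 up and 1 down of 8), and 1 of 16 hypothalamic and 1 of 6 endothelial markers fell. Pituitary hormone transcripts were uneven in PEL_10d-GH, Pomc reading 24.2, 30.2 and 5479 FPKM, Prl 0.133, 5.05 and 32.4 and Gh 0.889, 7.62 and 4.97. The part of these in the subunit results was not tested, but without PEL_10d-GH-3 the number called at day 10 was 23.

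In the GH arm each partner list held genes called lower. At day 3 lower calls were 9 of 12 AMPA auxiliary genes, with Cnih3 (-0.96) and Gsg1l (-0.70), 5 of 7 kainate and delta partners, with Cbln4 (-0.51) and Neto2 (-0.43), and 17 of 21 scaffolds, with Grip2 (-0.82) and Dlgap2 (-0.81). They were 9 of 12 GABA-A partners, with Iqsec3 (-0.59) and Lhfpl4 (-0.58), 5 of 7 GABA-B partners, with Kctd16 (-1.14) and Kcnj9 (-0.90), 12 of 19 synthesis and transport genes, with Slc17a6 (-0.89) and Slc6a11 (-0.72), and 4 of 5 glycine receptor subunits, with Glra3 (-0.90) and Glra1 (-0.74). Homer3 (1.13), Gabarap (0.67) and Kctd12 (0.88) were again higher.

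At day 10 with GH the lower calls were 7 of 12 AMPA auxiliary genes, with Cnih3 (-0.70) and Shisa9 (-0.46), 1 of 7 kainate and delta partners, Neto2 (-0.26), and 8 of 21 scaffolds, with Dlgap2 (-0.48) and Nptxr (-0.41). Among inhibitory partners they were 5 of 12 for GABA-A, with Lhfpl4 (-0.39) and Iqsec3 (-0.37), 4 of 7 for GABA-B, with Kctd16 (-0.86) and Kcnj9 (-0.57), and 2 of 5 glycine receptor subunits, with Glra3 (-0.53) and Glrb (-0.22), and 4 of 19 synthesis and transport genes were lower, with Slc17a6 (-0.54) and Slc6a11 (-0.34). Homer3 (0.95), Gabarap (0.41), Kctd12 (0.53) and Slc38a2 (0.70) were higher. From day 3 to day 10 the rises were 2 of 12 AMPA auxiliary genes (Cacng2 0.40 and Frrs1l 0.27), 2 of 7 kainate and delta partners (C1ql2 0.53 and Cbln1 0.35), 2 of 21 scaffolds (Shank1 0.51 and Grip1 0.38) and 5 of 19 synthesis and transport genes (Slc38a2 0.53 and Slc38a1 0.36 leading). In the GABA-A list 1 rose (Plcl1 0.32) and 1 fell (Gabarap -0.27), as in the GABA-B list (Kcnj3 0.31 and Kctd12 -0.36), and of the 5 glycine receptor subunits edgeR called 0, with 3 higher at an unadjusted p below 0.05 and 1 by DESeq2.

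Whether the lesion acted differently with GH was tested by the interaction. At day 3, 1 of 41 subunits was called, Grm2, with a difference in log2 fold change (with GH minus without) of -2.37 (SE 0.37, adjusted p = 0.0452), where 0.0462% of all genes were called in either direction. Grm2 was lower after the lesion with GH and read 2.44, 2.86 and 3.03 FPKM in PEL_3d against 2.87 and 1.72 in Sham without GH. The call was lost in 14 of 18 other settings, with an adjusted p from 0.0529 to 0.633 there and from 1.1e-06 to 0.0116 in the others. The count was 8 without PEL_3d-GH-3 and 0 without any library of the other groups in turn, or without PEL_3d-GH-1. At day 10 edgeR called 0 (all genes 0%), with 6 lower and 0 higher at an unadjusted p below 0.05 and 2 lower by DESeq2, and without PEL_10d-1 it called 2. Grm2 again had the largest difference at day 10 (-2.66, SE 0.47, adjusted p = 0.109). So the 30 falls with GH and the 3 without are not shown to differ gene by gene.

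Without a lesion GH is added to the hormone of the animal's own pituitary. GH in Sham mice raised 2 of 41 subunits, both Gi-coupled glutamate receptors, and edgeR had 0 lower. Of all 14539 genes tested 116 (0.798%) rose and 43 fell. At an unadjusted p below 0.05 edgeR had 8 subunits higher and 6 lower, and DESeq2 called 3 higher and 0 lower. The median log2 fold change was -0.03 for the subunits and 0.00 for all 14539 genes tested. Grm2 had 10.7, 7.5 and 7.04 FPKM in Sham-GH and 2.87 and 1.72 in Sham (2.08, SE 0.18, adjusted p = 7.9e-04), and Grm4 6.43, 6.85 and 5.77 and 4.65 and 3.91 (0.55, SE 0.10, adjusted p = 0.0227). All 3 Sham-GH libraries were above both Sham libraries. However, the left-out library HIP-SHAM-1, in which the hypothalamic markers summed to 1472 FPKM, had 7.58 FPKM of Grm2, within the Sham-GH range, and 7.09 of Grm4, above it, without GH in its label. Neither gene was called with SHAM-1 kept (0 subunits) or in a fit over all hypothalamic groups (0 subunits, Grm2 adjusted p = 0.0506, its range over all settings being 5.2e-25 to 0.702), and the count was 1, Grm2 alone, without SHAM-2, without SHAM-3 or without SHAM-GH-1. Thalamic markers, summed over 8 genes with Calb2 the most abundant, were 261, 227 and 265 FPKM in Sham-GH and 244 and 248 in Sham, with 0 of 7 tested called by edgeR (2 higher and 1 lower at an unadjusted p below 0.05, 0 by DESeq2). Of other markers, Fgfr3 (0.27) of 9 astrocyte and Slco1a4 (0.33) of 6 endothelial ones were higher, and Gpr17 (-0.30) of 6 oligodendrocyte precursor and Cldn5 (-0.83) of 6 endothelial ones lower. Of 16 hypothalamic markers edgeR called 0, with 1 higher and 7 lower at an unadjusted p below 0.05 and 0 by DESeq2, the sums being 1117, 1551 and 1472 FPKM in Sham-GH and 1664 and 1647 in Sham. The part of these was not tested. Of the partner genes, Cnih3 (0.65), 1 of 12 AMPA auxiliary genes, and 1 of 19 synthesis and transport genes were higher.

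In lesioned mice GH changed 0 subunits by edgeR at either day. At day 3, 0.0270% of all genes were called; of 40 subunits 0 were higher and 11 lower at an unadjusted p below 0.05, DESeq2 called 0, and the median was -0.13 for the subunits and 0.01 for all 14798 genes tested. At day 10, 0% of all genes were called; 1 of 41 was higher and 8 lower at an unadjusted p below 0.05, DESeq2 called 0, and the median was -0.13 for the subunits and 0.00 for all 14763 genes tested. Without PEL_3d-GH-3 the count at day 3 was 1. Of all 83 partner genes in the 7 lists edgeR called 0 at either day, with 1 higher and 4 lower at day 3 and 2 higher and 5 lower at day 10 at an unadjusted p below 0.05, and DESeq2 called 0.

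The hippocampus lies away from the pituitary stalk, and its receptors serve circuits of learning and memory. The lesion was compared there at day 10. In it, 2 of 40 subunits were higher in PEL_10d than in Sham and 0 lower. Of all 14191 genes tested 296 (2.09%) were higher and 577 lower. At an unadjusted p below 0.05 edgeR had 13 subunits higher and 4 lower, and DESeq2 called 5 higher and 0 lower. The median log2 fold change was 0.10 for the subunits and 0.01 for all 14191 genes tested, and Gabre was not tested. Grin3a, the calcium-limiting NMDA subunit, had 7.27, 10.5 and 7.64 FPKM in PEL_10d and 3.6 and 4.63 in Sham (1.02, SE 0.17, adjusted p = 0.0171). Grik3 had 7.06, 5.82 and 5.33 and 3.46 and 3.85 (0.71, SE 0.12, adjusted p = 0.0159). The groups did not overlap in either gene. The count was 0 without HIP-SHAM-2 or HIP-SHAM-3, 5 without HIP-PEL_10d-1, 4 without HIP-PEL_10d-3 and 0 with HIP-SHAM-1 kept, when Grik3 stood at -0.31.

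Tissue markers differed between the same hippocampal groups. Of 14 hippocampal markers 2 were higher, C1ql2 (0.71) and Fibcd1 (0.58), and 2 lower, Spink8 (-0.63) and Neurod6 (-0.51), with a summed FPKM of 413, 348 and 441 in PEL_10d and 473 and 400.5 in Sham, Neurod6 being the most abundant and none at 0. Choroid plexus markers were lower in 7 of 8 and higher in 0 (0 also at an unadjusted p below 0.05 and by DESeq2), their summed FPKM being 133, 39 and 801 in PEL_10d and 4348 and 5449 in Sham, nearly all of it Ttr. Thalamic markers summed to 81.5, 51.8 and 34.5 FPKM in PEL_10d and 28.8 and 19.6 in Sham with 1 of 7 tested higher, Calb2, the most abundant in PEL_10d, reading 47, 40.5 and 22.2 and 6.02 and 5.9; Gbx2 was at 0 in PEL_10d. Striatal markers summed to 57.2, 44.3 and 59.8 and 75.7 and 76.2 FPKM, with Ppp1r1b, the most abundant, lower (-1.11) and Rgs9 higher (0.59) of 8. The pan-neuronal markers Nefl (-0.30) and Nefm (-0.31) of 14 were lower, and C1qb (0.52) of 12 microglia and macrophage markers (7 higher at an unadjusted p below 0.05) and Slc1a3 (0.33) of 9 astrocyte markers higher. Their part in the 2 calls was not tested. Partner genes called were Cnih3 (1.17) and Shisa6 (-0.26) of 12 AMPA auxiliary genes, C1ql2 (0.71) of 7 kainate and delta partners, Lhfpl4 (0.24) of 12 GABA-A partners, Kcnj9 (0.44) of 7 GABA-B partners and Glra2 (0.74) of 3 glycine receptor subunits tested. Of 18 synthesis and transport genes 3 were higher, Slc1a3 (0.33) among them, and Slc17a8 was lower (-1.24). Of 21 scaffolds edgeR called 0, with 1 higher and 3 lower at an unadjusted p below 0.05 and 0 by DESeq2.

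The stalk is joined to the hypothalamus and not to the hippocampus. The day 10 lesion effect was compared between the tissues, as hypothalamus minus hippocampus. The difference was negative for 10 of 41 subunits and positive for 0. At an unadjusted p below 0.05 edgeR had 21 negative and 0 positive, and DESeq2 called 16 negative and 0 positive. Of all 15053 genes tested 635 (4.22%) had a negative difference and 981 a positive one. The median difference was -0.35 for the subunits and -0.03 for all genes tested. Grm8 had the largest, -1.74 (SE 0.34, adjusted p = 0.00967), from 5.47, 5.81 and 5.45 FPKM in PEL_10d and 8.51 and 6.18 in Sham hypothalamus, and 2.19, 1.72 and 1.17 and 0.701 and 0.761 in the hippocampus. Grin3a came to -1.35 (SE 0.22, adjusted p = 0.00314), with 13.4, 15.8 and 16.1 and 18.2 and 18.5 FPKM in the hypothalamus. Gabra3 came to -1.03 (SE 0.21, adjusted p = 0.0111), with 18.9, 29.3 and 20.2 and 13.8 and 14.7 FPKM in PEL_10d and Sham hippocampus. In all 3 genes every PEL_10d library lay below both Sham libraries in the hypothalamus and above both in the hippocampus. Grik3 (-0.91), Gabrg1 (-0.73), Grin2d (-0.67), Gabrg3 (-0.59), Grik5 (-0.41), Grm5 (-0.37) and Gabbr1 (-0.35) were the others.

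This result leans on the Sham pairs, and tissue markers differed beside it. The count was 2 without HIP-SHAM-2, 4 without HIP-SHAM-3, 4 without SHAM-2, 5 without SHAM-3, 6 without HIP-PEL_10d-2 and 0 with the doubted libraries kept. In the same test 6 of 8 choroid plexus markers had a positive difference and 0 a negative one (0 also at an unadjusted p below 0.05 and by DESeq2), and 10 of 12 microglia and macrophage markers a positive one. Of 14 pan-neuronal markers 2 had a negative difference, Tubb3 (-0.54) and Eno2 (-0.29), and 0 a positive one (8 negative and 0 positive at an unadjusted p below 0.05, 6 and 0 by DESeq2), summing in the hippocampus to 3696, 3832 and 3713 FPKM in PEL_10d and 3841 and 3759 in Sham. Of the other lists, 1 of 6 endothelial markers had a positive and 1 of 7 thalamic markers tested a negative difference, and astrocyte (3 positive and 2 negative of 9), striatal (1 and 2 of 8) and hippocampal markers (1 and 1 of 14) went both ways. The part of these was not tested. Partner genes with a negative difference were 5 of 12 AMPA auxiliary genes (Cnih3 -1.06, Shisa9 -0.91), 1 of 7 kainate and delta partners (C1ql2 -0.96), 2 of 21 scaffolds (Grip1 -0.63, Dlg3 -0.31), 1 of 12 GABA-A partners (Lhfpl4 -0.42), 1 of 7 GABA-B partners (Kcnj9 -0.56), 7 of 19 synthesis and transport genes (Slc1a6 -0.79, Slc32a1 -0.68) and 2 of 5 glycine receptor subunits (Glra3 -1.36, Glra2 -0.83). Homer3 (0.81), Kctd12 (0.38) and Slc38a2 (0.79) had a positive one.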

How the data were processed

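RNA-seq libraries of hypothalamic tissue and hippocampus were read from the authors' table of 22274 genes and 24 libraries. The values deposited as counts are expected counts (8.22% of them not whole), which the authors made with Hisat2 v2.0.5 and featureCounts v1.5.0-p3. The authors also deposited FPKM. Counts were rounded, scaled by TMM, filtered with filterByExpr (minimum count 10) and tested with the edgeR 4.0.16 quasi-likelihood test (R 4.3.3), each fit holding the groups compared, with Benjamini-Hochberg adjustment over all genes tested and a threshold of 0.05. Shares of subunits were tested by exact permutation. The test was tried on simulated counts, drawn around the real mean of each gene with the same dispersion for every gene. Folds of at least 1 on the log2 scale, up or down, were added to some genes. At PEL day 3 it recovered 40 of 42 genes raised by 1 on the log2 scale, with 13 false calls among genes left as they were. The real spread between libraries and smaller folds were not simulated.

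Libraries held 15095267 to 17973494 counts, so a gene with 10 counts has a counting error near 32% and one with 1000 near 3%. SHAM-1 and HIP-SHAM-1 were left out as tissue-mislabelled. DESeq2 1.42.0, DESeq2 size factors, other filters, a replicate block, 1 fit over all groups, keeping the doubted libraries and leaving out each library in turn were the alternatives. No comparison was paired, since over 31 pairs of libraries with the same number the correlations of their deviations from the group ran from -0.426 to 0.354.

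The members, marker lists and partner lists were chosen with earlier results of these data known. Not every member is named or drawn. Members past the threshold were taken for naming, or, above 10, the 5 with the largest rise and the 5 with the largest fall. Library values are given for up to 3 of each, and up to 2 partner genes per list and direction are named; others named were chosen after their values were seen. Differences in lesion effect were tested as interactions. Gene positions are from GENCODE M21 and promoters from RefSeq GRCm38.p6.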

Additional observations from a re-analysis of the deposited data

Results flagged for a closer look

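The day 10 lesion effect differed between the tissues (hypothalamus minus hippocampus, interaction test) for 10 of 41 subunits, each with a negative difference in log2 fold change: Grm8 -1.74, Grin3a -1.35, Gabra3 -1.03, Grik3 -0.91, Gabrg1 -0.73, Grin2d -0.67, Gabrg3 -0.59, Grik5 -0.41, Grm5 -0.37 and Gabbr1 -0.35. They are listed because the effects of the lesion in the 2 tissues were tested against each other and were called different. The number called moved when single libraries were left out. The calls were lost with the doubted libraries kept as labelled, where Grm8, Grin3a and Gabra3 changed sign.

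The day 3 lesion effect on Grm2 was called different between mice with and without GH, by -2.37 in log2 fold change (with GH minus without, adjusted p = 0.0452), and is listed for the same reason. The call was lost in 14 of 18 other settings. Without GH in its label, HIP-SHAM-1 read 7.58 FPKM of Grm2, against 2.87 and 1.72 in the Sham libraries the test used.

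Among the libraries left out of the comparisons, HIP-SHAM-1 held 15.1 FPKM of Gabre, above every hippocampal library used, and SHAM-1 held 27.5 FPKM of Grin2a, above every hypothalamic library used. They are listed as signal in libraries that no comparison uses.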

How the results depend on the processing

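Across 6 or 7 other settings besides leaving out libraries, the number of subunits called stayed within 1.5 times its value in all of them for the tissue comparison at PEL day 10, the lesion with GH at day 3 and at day 10, and GH in lesioned mice at either day. With CPM (counts scaled by library size alone) in place of FPKM, 28 of 31 shares separated the tissues (31 with FPKM). Over the 38 named results, single alternatives kept direction and side of the threshold 385 times, lost the threshold 76 times and reversed 6 times.

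With the doubted libraries kept as labelled, the count was 0 for the tissue comparison in Sham (34 without them), 2 for PEL day 3 (33), 0 for PEL day 10 (3), 0 for GH in Sham (2), 0 for the hippocampus (2), 0 for the tissue interaction (10) and 0 for the GH interaction at day 3 (1). In this setting 6 named results reversed: Gabrq 0.211 and Gabra3 0.142 at PEL day 10, Grik3 -0.314 in the hippocampus, and Grm8 0.323, Grin3a 0.068 and Gabra3 0.228 in the tissue interaction. The setting adds a library with other tissue markers to a Sham group.

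By DESeq2 the count was 10 at PEL day 10 (3 by edgeR), 17 from day 3 to day 10 with GH (10), 5 in the hippocampus (2), 16 for the tissue interaction (10), 3 for the GH interaction at day 3 (1) and 2 for that at day 10 (0). With a replicate block it was 8 at PEL day 10, 2 from day 3 to day 10 with GH, 5 in the hippocampus and 0 for the GH interaction at day 3. With 1 fit over all groups it was 6 at PEL day 10, 19 from day 3 to day 10 (12), 22 with GH, 0 for GH in Sham and 0 for the GH interaction at day 3; this setting does not apply to the hippocampus, which has 2 groups. Without a filter on low counts it was 4 for GH in Sham, 5 in the hippocampus, and 2 and 1 for the GH interactions at day 3 and day 10. For the GH interaction at day 3 it was 0 with DESeq2 size factors and 0 with a mean count of at least 50. The cause was not tested.

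Leaving out each library in turn, the count ran from 30 to 32 for the tissues at PEL day 10, 34 to 35 in Sham, 22 to 34 at PEL day 3, 0 to 3 at PEL day 10, 4 to 18 from day 3 to day 10, 33 to 39 and 23 to 32 with GH at day 3 and day 10, 2 to 27 between those days, 1 to 2 for GH in Sham, 0 to 1 and 0 to 0 for GH in PEL at day 3 and day 10, 0 to 5 in the hippocampus, 2 to 13 for the tissue interaction, and 0 to 8 and 0 to 2 for the GH interactions at day 3 and day 10. For the shares this setting tells nothing, since groups that do not overlap stay apart with 1 library fewer. Where 1 of 2 Sham libraries was left out, the lone sample is assumed to vary like the other groups. The libraries that move a count by more than 1.5 times are named with each result above.

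Depth limits the least abundant subunits: Gabrr2, with 268 counts over 24 libraries, was not tested in 3 comparisons and Gabre not in the hippocampus.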
